A study of Mus musculus with 6 samples.

Results

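The nuclear pore and nuclear transport genes are 38 genes for nucleoporins and the main transport factors, followed here after transfection of CAD cells, a catecholaminergic neuronal tumour line from mouse, with a plasmid expressing miR-124a-2. They were listed by name and function, and each gene was represented by the probe set chosen by the highest mean signal over the 6 arrays, among probe sets annotated to that gene alone. Of the 38, 36 were measured, out of 18195 genes in all, and Nup35 and Tpr were not analysed here. Total RNA (6 ug per labelling) came from 3 cultures given the empty plasmid (RI vector) and 3 given the RIPmiR-124a-2 plasmid. The labels call these biological replicates of 1 cell line grown in DMEM with fetal bovine serum or Fetaclone III, and both groups carried a transfected plasmid. The share of cells that took up plasmid and the time of harvest were not given in the sources used here. Values are log2 signals. Levels of different genes are not set against each other, because probe sets differ in brightness for the same amount of RNA.

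The nuclear pore complex is a channel through the nuclear envelope built from many copies of nucleoporins. A scaffold of outer and inner rings is anchored in the membrane, and flexible nucleoporins rich in phenylalanine-glycine repeats fill the channel. Importins and exportins bind cargo and pass through that mesh. The small GTPase Ran sets their direction, since it is bound to GTP in the nucleus and to GDP in the cytoplasm. Several outer ring nucleoporins also act at kinetochores in dividing cells, and dividing cells build new pores as nuclei grow.

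None of the 36 measured genes passed the test in either direction (limma, Benjamini-Hochberg adjusted p under 0.05 over all 18195 genes), where 0.698% of all genes were lower and 0.209% higher. At an unadjusted p under 0.05, 12 of the 36 were lower and 0 higher, against 5.79% of all genes lower. The direction was uneven. The fold change was below 0 in 34 of 36, with a median log2 fold change of -0.17, compared with 45.8% of all genes below 0 and a median of 0.02. Among the 9097 genes brighter than the median gene, as all 36 were, 47.3% were below 0 and the median was 0.01. In 14 of the 36 every plasmid array lay below every empty vector array, against 7.76% of all genes, and in 0 of the 36 did every plasmid array lie above. The genes were proposed with earlier results of these data known, so these counts describe them and support nothing further. In RNA from whole cultures, fewer cells of a kind and less RNA per cell cannot be told apart.

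The 95% intervals of the 36 log2 fold changes, not adjusted for multiple tests, ran from -0.94 at the lowest to 0.37 at the highest. No interval reached a 2-fold fall (-1 on the log2 scale). The interval included 0 in 24 genes. The miR-124 response itself was far larger in the same cultures. Vamp3, a vesicle SNARE gene, fell by 1.88 on the log2 scale (SE 0.15), and Ptbp1, a splicing repressor, fell by 1.24 (SE 0.12), both at a limma adjusted p of 0.00978. The phosphatase gene Ctdsp1 fell by 1.38 (adjusted p = 0.0177), and the value of 1.01 for Ptbp2, a neuronal paralog of Ptbp1, missed the threshold (adjusted p = 0.0697). Ptbp2 passed as higher in fits with a block for the spread of the arrays (adjusted p = 0.0107) or for their spike controls (adjusted p = 0.0193).

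**Figure D1:**
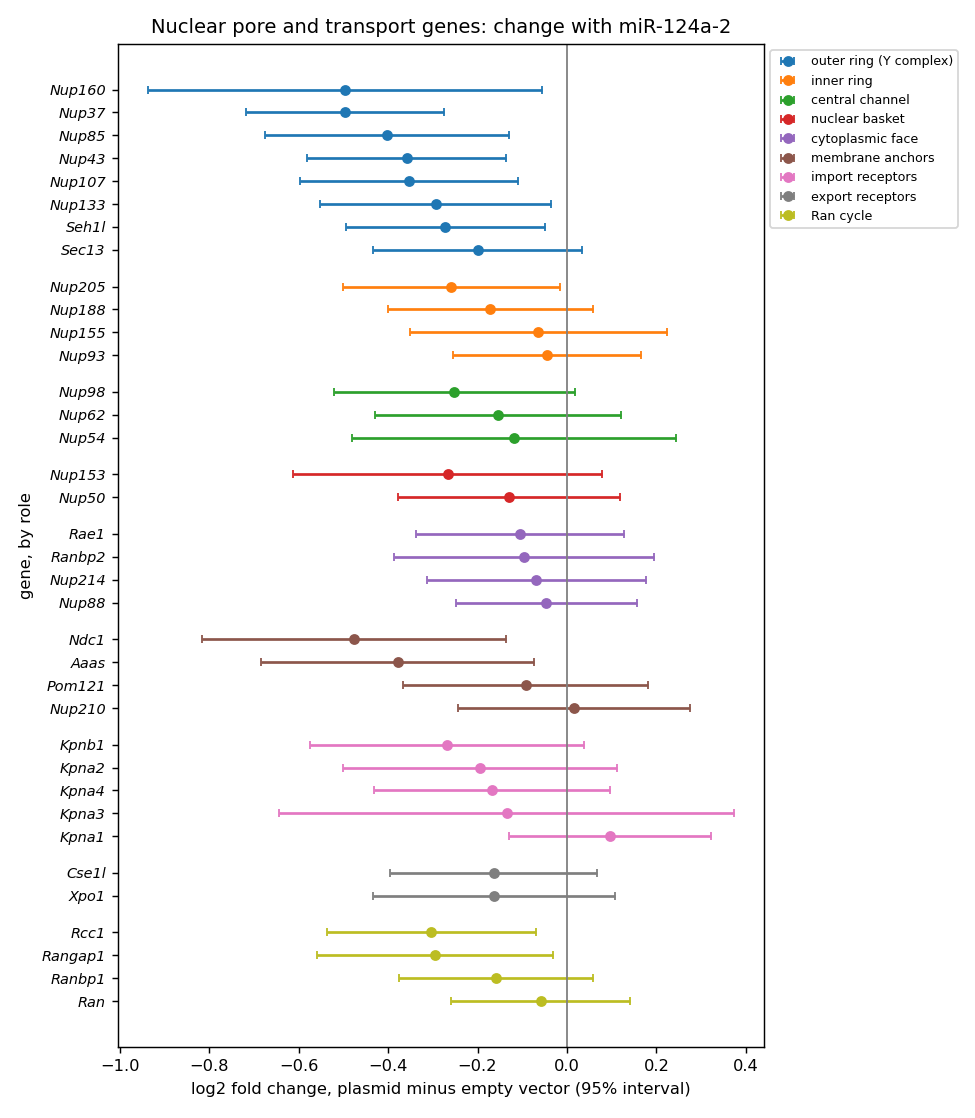
Log2 fold change (plasmid minus empty vector, points) with its 95% interval (bars) for 36 genes grouped by role, from 3 arrays per group. Of the points, 34 lie left of 0, and the 8 outer ring genes lie between -0.50 and -0.20.

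The arrays differed in ways that only partly followed the groups. The interquartile range of log2 signal was 3.06 to 3.10 on 3 narrow arrays, namely empty vector replicate 1 with plasmid replicates 1 and 2, and 3.26 to 3.35 on the 3 wide arrays. Poly-A spike controls averaged 5.96 and 5.97 in the replicate 1 arrays against 5.57 to 5.71 in the others, and transferrin receptor controls read 1.34 and 1.55 higher at the 3′ end than at the 5′ end, against 0.95 to 1.09. The part of the spike and 3′ differences in the results was not tested beyond a fit with replicate 1 as a block, in which Nup37 alone of the 36 passed (adjusted p = 0.0485), against 1.04% of all genes lower. With the group in the fit, 28 of the 36 genes were higher in wide than in narrow arrays, by a median of 0.13 on the log2 scale. Over all genes that median was -0.04 (7763 of 18195 higher), and over the 9097 brighter genes it was 0.06 (5736 higher). Because 2 of 3 plasmid arrays were narrow and 2 of 3 empty vector arrays wide, values are also given within each set. The plasmid value was lower within both sets in 30 of the 36 genes, against 31.3% of all genes. The median was -0.19 within the narrow arrays (1 of them empty vector) and -0.12 within the wide arrays (1 of them plasmid). A fit that took the set as a block called 1 of the 36 lower, Nup37 (limma adjusted p = 0.0321), against 1.58% of all genes.

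**Figure D2:**
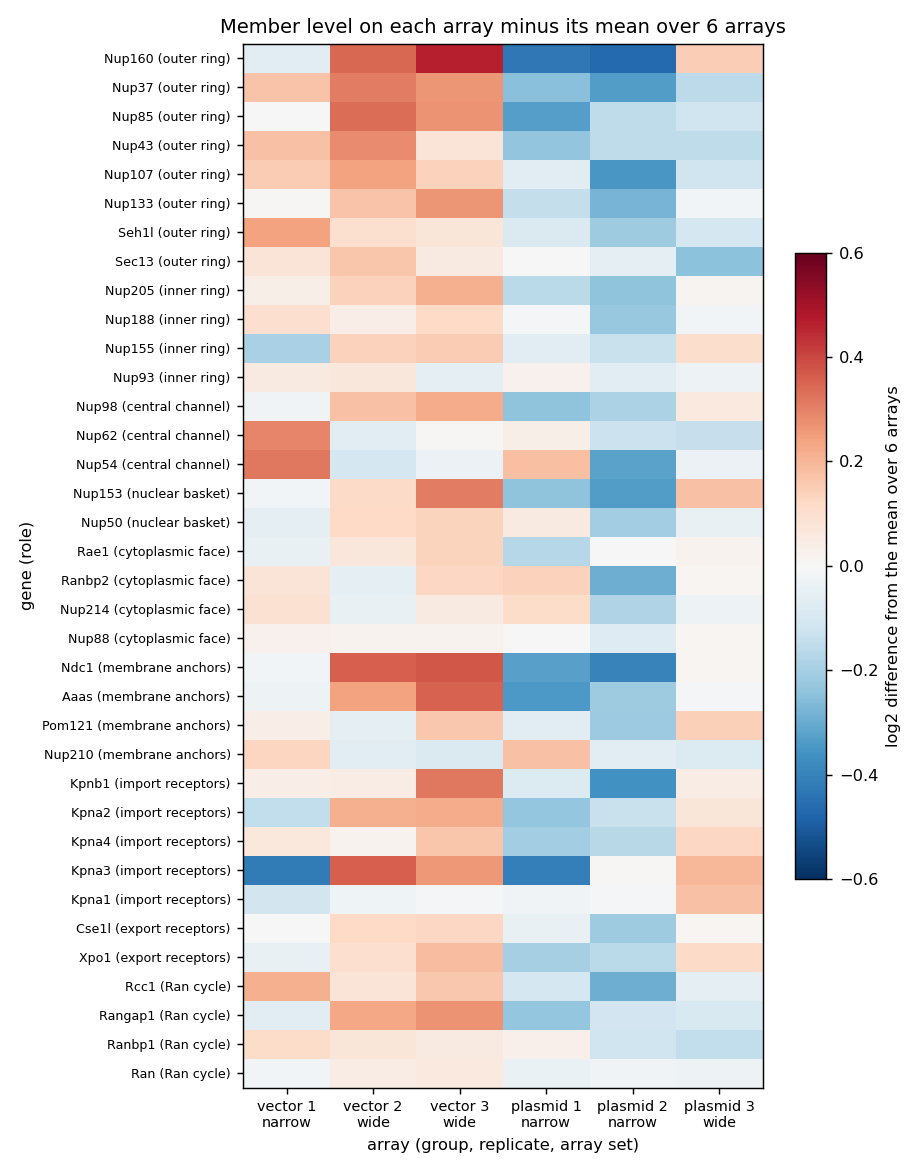
Log2 level of each of 36 genes (rows, by role) on each of 6 arrays (columns), minus the gene's mean over the 6 arrays, with red above and blue below the mean. Plasmid replicate 2 held the lowest value for 19 of the 36 genes and empty vector replicate 3 the highest for 19.

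The outer ring, or Y complex, is the scaffold module that is placed on both faces of the pore and is needed to assemble it. The 8 genes listed for it here, which need not be every subunit, were all measured, and none passed the test. All 8 were below 0, with a median log2 fold change of -0.36, and 7 of 8 had an unadjusted p under 0.05. Over all genes 45.8% were below 0 and 5.79% were lower at that p. The other 28 genes had a median of -0.16, and the difference between these medians was not tested. The ring's median was -0.36 in narrow and -0.32 in wide arrays. By array, the median distance from the gene's empty vector mean was -0.05, 0.07 and -0.01 with empty vector. With the plasmid it was -0.35, -0.39 and -0.31, so these 3 medians lay close together. Single genes were less even between the plasmid arrays, Nup160 and Sec13 among them. Without plasmid replicate 2, 4 of 8 had an unadjusted p under 0.05, and without each other array 5 to 7 did. Over all 18195 genes, in both directions together, 1787 did without plasmid replicate 2 and 1285 to 2727 without each other array.

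Nup37, a small propeller protein of the Y complex, had the smallest adjusted p of the 36. It read 8.21, 8.35 and 8.31 on the empty vector arrays and 7.79, 7.71 and 7.88 on the plasmid arrays, so the highest plasmid value lay 0.33 below the lowest vector value. The means were 8.29 ± 0.07 and 7.79 ± 0.09 (SD, n = 3 each). The log2 fold change was -0.50 ± 0.10 (SE), 1.41-fold lower, at a limma adjusted p of 0.0634, and was -0.46 within narrow and -0.45 within wide arrays. It passed in 9 of 18 alternative settings, with adjusted p-values from 0.0270 (cyclic loess) to 0.351 (without empty vector replicate 2). Leaving out plasmid replicate 3 brought it to 0.0477, and leaving out each other array raised it to between 0.101 and 0.351.

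Nup37 and Nup107 are the outer ring genes with the smallest p-values among those that have a window. Their RefSeq promoter windows (GRCm38.p6, 250 bases before to 50 after the gene start) are shown for description. A link between these sequences and the fold changes was not tested. Capitals mark matches on either strand to a CCAAT box (CCAAT), an E2F element (TTTCCCGC, TTTCGCGC, TTTGCCGC or TTTGGCGC), an ETS element (CCGGAAGT) or an E-box (CACGTG), with no overlaps here. The Nup37 window (chr10:88146742-88147041, + strand) has a CCAAT box that begins 20 bases before the start, and the Nup107 window (chr10:117792656-117792955, - strand) has no match.
Nup37: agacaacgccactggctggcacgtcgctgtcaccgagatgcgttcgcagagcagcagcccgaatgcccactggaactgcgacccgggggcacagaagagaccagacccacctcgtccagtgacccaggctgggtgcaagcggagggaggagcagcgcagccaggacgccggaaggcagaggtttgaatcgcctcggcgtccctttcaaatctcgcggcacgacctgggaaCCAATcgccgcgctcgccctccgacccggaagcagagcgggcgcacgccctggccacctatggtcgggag
Nup107: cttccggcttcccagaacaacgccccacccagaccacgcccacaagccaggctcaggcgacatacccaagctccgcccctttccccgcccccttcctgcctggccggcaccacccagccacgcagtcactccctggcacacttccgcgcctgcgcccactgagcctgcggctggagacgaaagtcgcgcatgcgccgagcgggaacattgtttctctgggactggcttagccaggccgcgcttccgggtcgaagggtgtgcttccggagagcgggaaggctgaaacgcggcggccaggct

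Promoter windows were listed for 30 of the 36 genes (33 windows). The CCAAT box was in 15 of these 33 windows, or 45.5%, against 37.4% of 32851 windows of all genes. E2F elements were in 2 (6.06% against 2.26%), ETS elements in 5 (15.2% against 3.89%) and E-boxes in 5 (15.2% against 7.15%). The 5 outer ring genes with windows had 6 windows, of which 2, both of Nup37, held a CCAAT box and 1, of Sec13, an ETS element. The 6 windows of the ring held no E2F element and no E-box. A match is a run of letters and not a measured binding site.

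Nup107, a stem protein of the Y complex, read 9.70, 9.79 and 9.68 with empty vector and 9.48, 9.20 and 9.43 with the plasmid. The groups did not overlap, and the log2 fold change was -0.35 ± 0.11 (SE, limma adjusted p = 0.221; -0.36 narrow, -0.31 wide). Nup43, a further propeller subunit, read 8.95, 9.06 and 8.85 against 8.54, 8.62 and 8.62. It was the most even of the plasmid groups in this ring, with an SD of 0.05, and its fold change was -0.36 ± 0.10 (SE, adjusted p = 0.164; -0.37 narrow, -0.33 wide). Nup85, which links subunits in the short arm of the Y, read 9.30, 9.64 and 9.57 against 8.97, 9.15 and 9.18. Its groups did not overlap either, with -0.40 ± 0.12 (SE, adjusted p = 0.212), and the value was smaller within narrow (-0.24) than within wide arrays (-0.42).

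Seh1l, the partner of Nup85 that also serves in nutrient signalling to mTORC1, read 8.58, 8.43 and 8.40 against 8.25, 8.12 and 8.23. Its fold change was -0.27 ± 0.10 (SE, limma adjusted p = 0.321; -0.39 narrow, -0.19 wide). Nup133, at the foot of the stem, read 9.48, 9.64 and 9.74 against 9.33, 9.19 and 9.46, which are separated by only 0.02 at the nearest values. The fold change of Nup133 was -0.29 ± 0.11 (SE, adjusted p = 0.366; -0.22 narrow, -0.23 wide). Nup160, in the long arm, had among the 8 the widest spread, with 8.58, 8.99 and 9.11 against 8.22, 8.18 and 8.79. Its groups overlapped, since plasmid replicate 3 lay above empty vector replicate 1. The fold change of -0.50 ± 0.19 (SE, adjusted p = 0.373) was -0.38 within narrow and -0.26 within wide arrays, and the gene stood 0.53 higher in wide than in narrow arrays. Sec13, which also forms the outer coat of COPII vesicles, read 10.50, 10.59 and 10.47 against 10.42, 10.36 and 10.17. It had the smallest difference of the 8, -0.20 (95% interval -0.43 to 0.03, adjusted p = 0.562; -0.11 narrow, -0.36 wide), although its groups did not overlap.

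**Figure D3:**
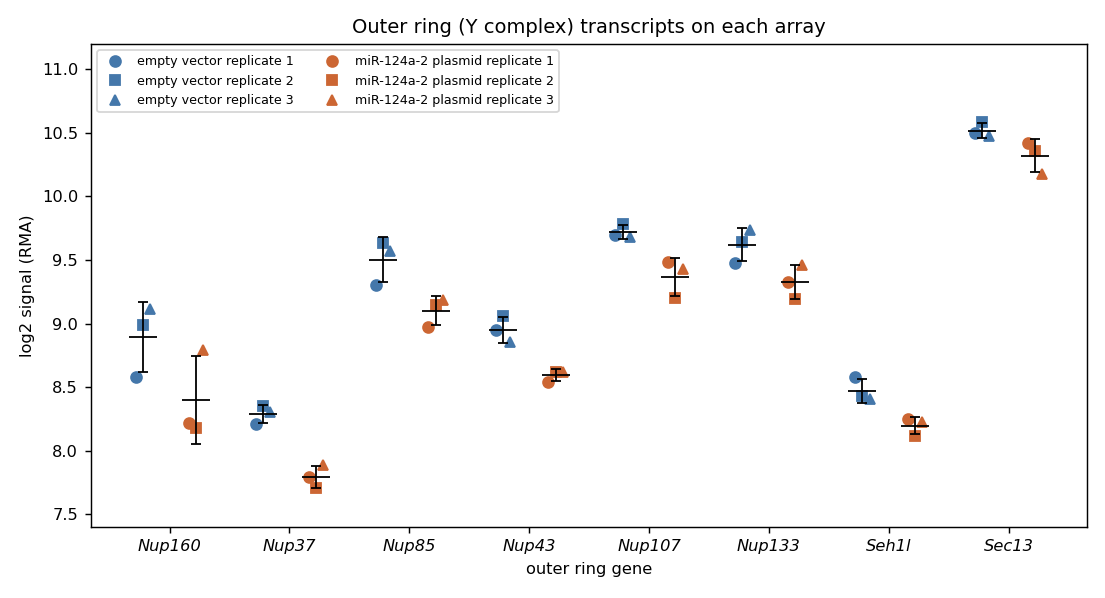
Log2 signal of the 8 outer ring genes on each array (blue, empty vector; orange, plasmid; marker shape, replicate), with the mean (line) and SD (bar) of 3 arrays. All plasmid arrays lie below all empty vector arrays for 7 genes, against 7.76% of all genes, and overlap them for Nup160.

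The inner ring lies at the membrane wall of the channel. Of its 4 measured genes none passed, and the median log2 fold change was -0.12. Nup205, a large scaffold subunit, read 10.34, 10.44 and 10.52 with empty vector and 10.15, 10.07 and 10.32 with the plasmid, a fold change of -0.26 without overlap (adjusted p = 0.412). Its relative Nup188 had -0.17, also without overlap, Nup155 had -0.06 and Nup93, which holds the channel nucleoporins, had -0.04. For Nup93 the 6 values spanned only 9.76 to 9.89, with a 95% interval of -0.25 to 0.17.

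The channel, basket and cytoplasmic nucleoporins carry most of the phenylalanine-glycine repeats or the factors that receive cargo. None of their 9 measured genes passed, and all 9 were below 0. In the channel Nup98, which also binds mRNA export factors, read 8.58, 8.78 and 8.83 with empty vector and 8.36, 8.41 and 8.66 with the plasmid, overlapping through plasmid replicate 3. Its fold change was -0.25, with Nup62 at -0.15 and Nup54 at -0.12. Nup62 and Nup54 were highest on empty vector replicate 1 (10.31 and 9.17), unlike most of the 36 genes. In the nuclear basket Nup153 had -0.27, which was -0.27 within narrow and -0.03 within wide arrays, and Nup50, a cofactor of importin alpha recycling, had -0.13. On the cytoplasmic face Rae1, an mRNA export factor, had -0.10, Ranbp2, the SUMO ligase of the cytoplasmic filaments, -0.10, Nup214 -0.07 and Nup88 -0.05. Without plasmid replicate 2 the values of Nup54, Nup214 and Ranbp2 turned to between 0.01 and 0.03.

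Among membrane anchors, Ndc1, a transmembrane nucleoporin, read 7.20, 7.57 and 7.59 with empty vector and 6.89, 6.81 and 7.23 with the plasmid. Plasmid replicate 3 lay just above empty vector replicate 1, and the fold change was -0.48 ± 0.15 (SE, limma adjusted p = 0.236), with -0.35 within both narrow and wide arrays. Aaas, which encodes aladin and is held at the pore by NDC1, read 8.70, 8.97 and 9.08 against 8.38, 8.51 and 8.72. Here too the groups overlapped only through plasmid replicate 3, with -0.38 ± 0.13 (SE, adjusted p = 0.308; -0.25 narrow, -0.31 wide). The transmembrane nucleoporins Pom121 and Nup210 had -0.09 and 0.01. Nup210 was below 0 under the array set block (-0.04) and without 3 single arrays.

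Of the 5 import receptor genes, none passed and 4 were below 0. Kpnb1 encodes importin beta, which carries cargo bound to the importin alpha adaptors encoded by the Kpna genes. Kpnb1 read 10.94, 10.94 and 11.22 against 10.82, 10.54 and 10.95, a fold change of -0.27 (adjusted p = 0.546). The alpha adaptors followed with Kpna2 at -0.19, Kpna4 at -0.17 and Kpna3 at -0.13, while Kpna1 had 0.10 (95% interval -0.13 to 0.32). The probe set used for Kpna3 followed the replicate more than the group. Its replicate 1 arrays read 7.33 and 7.34 and the other 4 lay between 7.76 and 8.11. Its fold change was 0.22 within narrow and -0.11 within wide arrays. A probe set of Kpna3 nearly as bright (mean 7.73 against 7.75) had -0.36, with overlap between groups. The exportin genes Xpo1, for the carrier of leucine-rich export signals, and Cse1l, for the carrier that returns importin alpha to the cytoplasm, each had -0.16 and overlapped between groups. For Xpo1 the value was -0.14 within narrow and -0.03 within wide arrays.

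The Ran cycle genes are those for Ran, its nuclear exchange factor RCC1, its cytoplasmic activator RanGAP1 and the coactivator RanBP1. None of the 4 passed, all 4 were below 0, and in all 4 the plasmid arrays lay below the empty vector arrays. Over all genes, 45.8% were below 0 and 7.76% had every plasmid array below every empty vector array. Rcc1 read 8.43, 8.29 and 8.37 against 8.11, 7.92 and 8.15, a fold change of -0.30 ± 0.10 (SE, limma adjusted p = 0.285; -0.41 narrow, -0.18 wide). Rangap1 had -0.29 (adjusted p = 0.380; -0.11 narrow, -0.35 wide) and Ranbp1, at 12.57, 12.53 and 12.51 against 12.49, 12.34 and 12.31, had -0.16 (-0.16 narrow, -0.21 wide). Ran itself differed less, at 12.58, 12.64 and 12.66 against 12.56, 12.58 and 12.57, with -0.06 (95% interval -0.26 to 0.14).

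Probe sets that the choice of the brightest left aside gave a further reading of 26 of the 36 genes, although from the same RNA. Of these 60 probe sets, 50 were below 0, against 52.4% of 16763 such probe sets of all genes. At an unadjusted p under 0.05, 13 were lower and 0 higher, against 5.25% lower over all genes, and 0 passed after adjustment over all probe sets. In the outer ring, the other probe set of Nup85 had -0.51 and that of Nup43 -0.41. The brightest remaining probe sets of Seh1l had -0.47 and -0.45, and those of Nup133 had -0.24 and -0.37. Dimmer probe sets ran from -0.48 to -0.09 for Seh1l and from -0.22 to -0.03 for Nup133. The other probe set of Nup160, at a mean of only 3.25, had -0.10. Nup37, Nup107 and Sec13 had no other probe set annotated to the gene alone. The other probe sets of Ndc1 had -0.51, without overlap between groups, and -0.66, with overlap. The probe sets used for Kpnb1, Nup62 and Ran are of a kind that can also bind other transcripts, and those for Nup107, Nup43, Nup54 and Kpna1 of a kind whose probes can match several related transcripts. The other probe sets of Kpnb1 had -0.63, without overlap between groups, and -0.26 and -0.34, with overlap. The 2 dimmer probe sets of Nup50 had -0.37 and -0.43, against -0.13 in its brightest. The dimmest probe set of Kpna3 had -0.46, against -0.13 in its brightest. The other probe set of Kpna4 had -0.45, against -0.17 in its brightest, and both overlapped between groups. Kpna1 had 5 probe sets, of which 3 were above and 2 below 0.

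**Figure D4:**
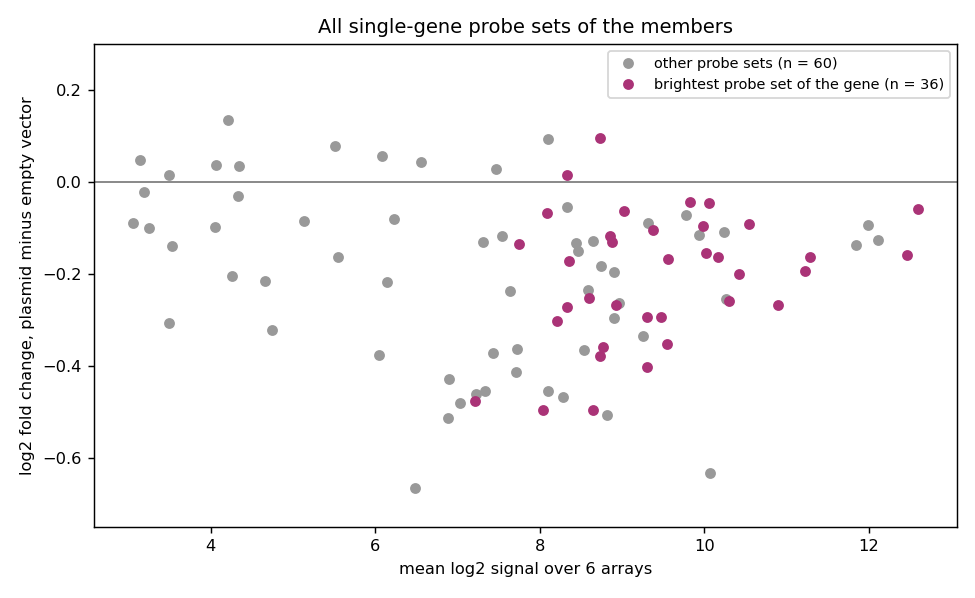
Log2 fold change (plasmid minus empty vector) against mean log2 signal over 6 arrays for the 96 probe sets of 36 genes; purple marks the brightest of each gene. Below 0 lie 34 of 36 brightest and 50 of 60 other probe sets.

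Of 69 further genes of nuclear transport and the nuclear envelope, 62 were measured and none passed the limma test in either direction. At an unadjusted p under 0.05, 8 were lower and 1 higher, against 5.79% and 5.13% of all genes. Their median log2 fold change was -0.10, with 48 of 62 below 0, against 0.02 and 45.8% over all genes. The smallest adjusted p was that of Lmnb1, the gene of lamin B1 in the lamina under the envelope. It read 8.71, 8.82 and 8.80 with empty vector and 8.38, 8.14 and 8.32 with the plasmid, a fold change of -0.50 (adjusted p = 0.0712) that passed under the array set block (adjusted p = 0.0423). Nxt1, the cofactor of the mRNA export receptor, had -0.42 (adjusted p = 0.107), Thoc1, of the THO complex that loads export factors, -0.44 (adjusted p = 0.126) and Lmnb2, the gene of lamin B2, -0.54 (adjusted p = 0.166). Syne1, a nesprin of the outer envelope, had 0.32 (adjusted p = 0.373). The medians were -0.12 for 16 lamina and envelope genes, -0.06 for 18 mRNA export genes, -0.07 for 13 importins and transportins, -0.12 for 7 exportins and Ran-binding genes, -0.12 for 4 further nucleoporins and -0.11 for 4 SUMO genes.

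Other gene groups are given beside these for comparison. All 6 Mcm2 to Mcm7 genes of the replicative helicase were below 0 (median -0.66), and Mcm2, Mcm4 and Mcm5 fell by 1.00, 0.76 and 0.67 (limma adjusted p = 0.0177, 0.0427 and 0.0367). The array set block called 5 of these 6 lower, against 1.58% of all genes. The part of the Mcm genes in the values of the pore genes was not tested. The 10 neuronal markers, with Nefl and Nefm near background, had a summed signal (log2) of 13.61 to 13.68 with empty vector and 13.84 to 13.98 with the plasmid, and none passed. Blocking by array set called 2 of the 10 higher, Elavl4 and Syt1 (limma adjusted p = 0.0254 and 0.0359), against 1.42% of all genes. The replicate 1 block called Snap25 and Syt1 (adjusted p = 0.0434 and 0.0362), against 0.55% of all genes. Of 12 catecholaminergic and sympathetic markers, 11 were measured (summed signal 13.29 to 13.36 and 13.36 to 13.52). Empty vector means were 10.16 for Dbh, 11.08 for Phox2a, 11.31 for Hand2, 6.32 for Th and 5.23 for Ddc, and the transporter gene Slc18a2 was low, at 3.99. Of 26 markers of glia, fibroblasts, immune, endothelial and epithelial cells, 24 were measured, their means lay between 3.29 and 6.34, and none passed. Absent-transcript controls averaged 3.37 to 3.50.

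The 12 genes at an unadjusted p under 0.05 became 7 without empty vector replicate 2, 6 without replicate 3 of that group, 7 without plasmid replicate 1 and 5 without plasmid replicate 2. Without empty vector replicate 1 the count stayed at 12, and without plasmid replicate 3 it was 17. Over all 18195 genes, in both directions together, these 6 fits gave 1285, 1313, 1768, 1787, 2144 and 2727 in the same order, against 1988 with all arrays. The number below 0 stayed between 31 and 35 of 36 over the 18 alternatives, and all 8 outer ring genes were below 0 in each of them.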

How the data were processed

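RNA of 6 cultures, 3 per group, was measured on arrays of 45101 probe sets. The deposited log2 values came from RMA, as named in the submitters' processing notes. The version, probe definitions and any filter were not given in the sources used here. RMA as usually run summarises probes on a log scale after quantile normalization, which removes differences in overall RNA amount. Whether all arrays were normalized together was not given, and their spreads differed. Arrays give no read depth, and 3 arrays per group limit the precision.

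The platform annotation supplied gene names (34958 probe sets with 1 gene, 932 with several, 9211 not listed). Of 18195 genes, 18033 matched RefSeq by Entrez ID. Plasmid and vector arrays were compared in a limma model (version 3.58.1 under R 4.3.3; lmFit, eBayes, two-sided, no block), adjusted by Benjamini-Hochberg over all genes. Second probe sets were taken from a fit of all probe sets. With 1 array per culture, the p-values measure the spread between cultures of 1 line together with differences of labelling and array.

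On simulated data (20 draws, 200 changed genes among 18195) the fit found 25.1% of changes of 0.5 and 79.2% of changes of 1 on the log2 scale. Per-array values are given for the 10 genes with the smallest adjusted p, and for others where they carry a description. Of the further transport genes the 4 with the smallest adjusted p are named, and Syne1, chosen after its value was seen, in addition. The members and lists were chosen with earlier results of these data known. Alternatives were blocks (replicate number, array set, poly-A batch), leaving out each array, other normalizations, filters, variance models and probe set rules.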

Additional observations from a re-analysis of the deposited data

How the results depend on the processing

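No gene of the 36 passed as higher under any of 18 alternatives, and at most 1 passed as lower. That gene was Nup37 in each case, under the poly-A batch block (1), the replicate block (1), the array set block (1), quantile normalization (1), cyclic loess (1), without dim genes (1), with an intensity trend (1) and with its robust form (1). Leaving out single arrays gave 0 to 1. Over all genes, 165 changes became 457 with the replicate block, 546 with the array set block, 290 with the poly-A batch block, 99 with median centring, 311 with quantile normalization, 312 with cyclic loess, 308 without dim genes, 270 and 266 with an intensity trend without and with robust estimation, and 51 with the most variable probe set. Leaving out single arrays gave 0 (limma; without empty vector replicate 2, 1285 at an unadjusted p under 0.05, or replicate 3, 1313) to 343 (without plasmid replicate 3), with 61, 13 and 46 without empty vector replicate 1 and plasmid replicates 1 and 2. The median log2 fold change of the 36 moved to -0.26 when the most variable probe set stood for each gene, and without single arrays lay between -0.26 and -0.15. The labels state no batch or pairing for the replicate numbers, so the samples were not taken as paired in the main fit. Deviations of same-numbered arrays correlated at 0.54, 0.00 and 0.55, and those of differently numbered arrays at -0.58 to 0.31. The arrays of replicates 1 and 3 thus resembled their same-numbered partners, and whether these shared a batch was not tested. The replicate block also called Ptbp2 (adjusted p = 0.0118), 3 neuronal markers as higher and 5 Mcm genes as lower. Over all 18195 genes that block called 152 higher and 305 lower. Values that changed sign, none of which passed, were Kpna3 (0.054), Nup155 (0.027) and Nup210 (-0.043) under the array set block, and Kpna1 (-0.12) and Rae1 (0.13) with the most variable probe set. Without single arrays, Kpna3 ran from -0.38 to 0.036, Nup210 from -0.069 to 0.084, Nup54 from -0.24 to 0.014, Nup214 from -0.14 to 0.0057 and Ranbp2 from -0.19 to 0.027. The causes were not tested. The remaining 625 of 648 single-gene values kept direction and call.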
